A study of Mus musculus with 19 samples.

Results

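Secreted proteins of the liver were followed through 9 genes, namely Igfbp1, Igfbp2, Fgf21, Gdf15, Angptl4, Angptl8, Fetub, Ahsg and Inhbe. They were taken by gene symbol from the 55421 genes of the count table, each symbol matched 1 gene, and all 9 passed the filter on low counts in every comparison. RNA sequencing was done on 19 liver libraries of 15 male C57BL/6 mice in 5 groups. The mutants carried an inducible transgene for the AP-1 dimer c-Jun/Fra2, which was switched on by taking away doxycycline at 3 weeks of age, and the controls were littermates handled the same way. The groups were liver of 3 mutants and of 6 controls killed 2 months after induction, and, 9 months after induction, macroscopically tumour-free liver of 3 mutants, 4 tumours of the same 3 mutants and liver of 3 controls. The labels do not name the promoter that drives the transgene or the cells that express it. The replicates are separate animals except that mutant 1 at 9 months gave 2 tumours, whose counts were summed for tests and group means.

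Hepatokines are hormones that hepatocytes release into blood and that act on fat, muscle, brain or the liver itself. FGF21 and GDF15 rise in many forms of metabolic and cellular stress, ANGPTL4 and ANGPTL8 restrain lipoprotein lipase in the fasted and the fed state, and the fetuins AHSG and FETUB are abundant plasma proteins of the cystatin family. IGFBP1 and IGFBP2 carry insulin-like growth factors, and INHBE is the subunit of activin E, a ligand of the TGF-beta family made almost only by liver.

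Values are CPM, counts scaled to a common library total after TMM scaling, a correction for RNA composition, and each library held between 14294611 and 22062341 counts. The transgene was followed through the levels of Fosl2 and Jun, which do not tell its transcripts from those of the endogenous genes. Fosl2, which encodes Fra2, averaged 780 ± 127 CPM in 2-month mutants and 12.46 ± 3.70 CPM in their controls (SD, n = 3 and 6). At 9 months it averaged 876 ± 78.4 CPM in tumour-free tissue, 637 ± 69.0 CPM in tumours and 13.9 ± 5.38 CPM in controls (SD, n = 3 each). Jun lay between 334 and 785 CPM in the mutant libraries of both ages and between 10.5 and 25.8 CPM in 2-month controls. Among the 9-month controls Jun reached 387 CPM in control 1, whose 12 immediate early genes summed to 4094 CPM, against 181 to 295 CPM in the other 2 controls. The number 1 mutant of that age was also high in these genes, at 1124 CPM in tumour-free tissue and 1411 to 1747 CPM in its tumours.

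The tissue was hepatocyte-rich in all groups, but its marker levels moved with the transgene. The 8 hepatocyte markers summed to between 41597 and 56809 CPM in 2-month mutants, against 115399 to 142297 CPM in their controls. They summed to between 46504 and 47503 CPM in tumour-free tissue and 49444 and 77029 CPM in tumours, against 121486 to 127744 CPM in 9-month controls. The 8 macrophage markers summed to 500 to 831 CPM in 2-month mutants and 214 to 458 CPM in their controls, and at 9 months to 621 to 690 CPM in tumour-free tissue, 415 to 1047 CPM in tumours and 184 to 257 CPM in controls. The 8 stellate cell and fibroblast markers summed to 395 to 700 CPM and 209 to 350 CPM at 2 months in mutants and controls, and to 406 to 644 CPM in tumour-free tissue, 437 to 775 CPM in tumours and 224 to 348 CPM in controls at 9 months. The 7 bile duct markers summed to 143 to 607 CPM in 2-month mutants and 49.7 to 101 CPM in their controls. At 9 months they summed to 88.6 to 258 CPM in tumour-free tissue, against 55.5 to 122.8 CPM in controls. In tumours they summed to 2393 and 3064 CPM in those of mutant 1, 418 CPM in mutant 2 and 96.9 CPM in mutant 3. The lowest tumour-free sample and the tumour of mutant 3 thus lay within the range of the controls. The 5 adipocyte markers summed to 0.12 CPM or less in all mutant libraries, against at most 1.42 CPM in 2-month controls and 2.87 to 7.35 CPM in 9-month controls. The part of these cell types in the results below was not tested, and in bulk tissue fewer cells of a type and less RNA per cell cannot be told apart.

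The 9 genes together took 1.13% to 1.24% of all counts in 2-month mutants, against 1.05% to 1.21% in their controls. At 9 months they took 1.13% to 1.36% in tumour-free tissue and 0.566% to 1.15% in tumours, against 0.511% to 0.676% in controls. Most of it was Ahsg, which by itself held 0.399% to 1.25% of a library's counts. Per kilobase of exon, Ahsg averaged 5139 CPM in 2-month controls, followed by Fetub at 447, Igfbp2 at 195, Angptl8 at 88.1, Angptl4 at 26.7, Igfbp1 at 24.6 and Inhbe at 14.4 CPM per kilobase, and Gdf15 and Fgf21 came last at 3.10 and 2.29. In tumour-free tissue Igfbp2 stood last at 0.879 CPM per kilobase and Fgf21 stood at 19.5, above Inhbe at 10.4. The order of Fgf21 and Inhbe there rests on the exon lengths used, 951 and 5319 bases. Without division by length they averaged 18.6 and 55.6 CPM. In tumours Fgf21 averaged 41.3 CPM per kilobase, close to Igfbp1 at 43.0.

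**Figure D1:**
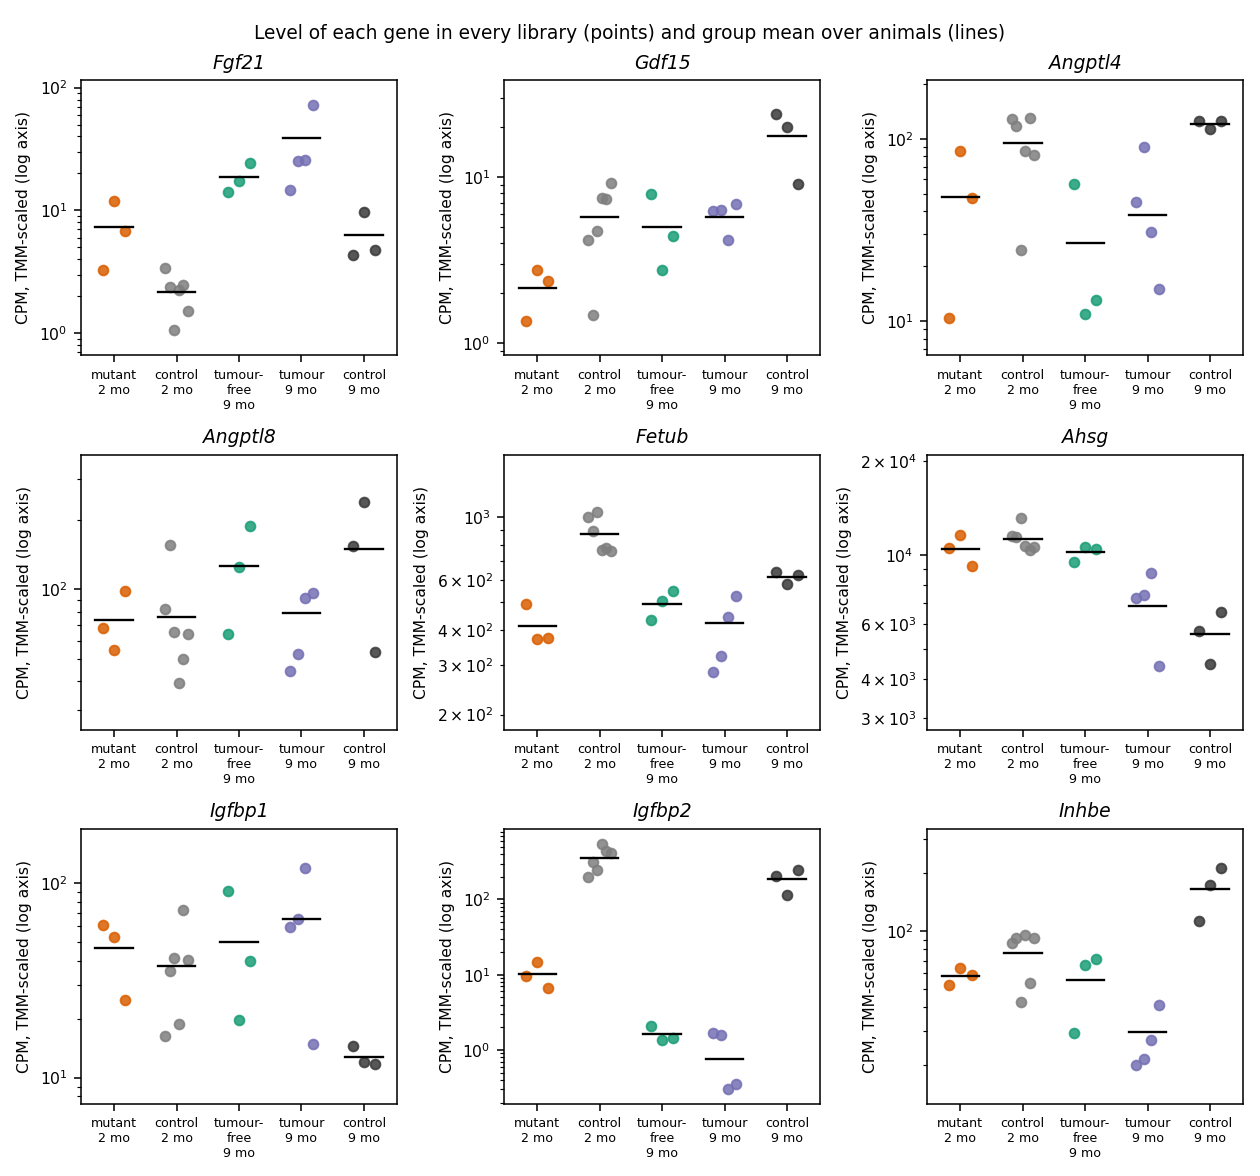
Level of each of the 9 genes in CPM after TMM scaling (log axis) in every library, with 1 panel per gene and 1 point per library. Horizontal lines are group means over animals. Igfbp2 lies between 0.31 and 14.6 CPM in all mutant tissue and between 116 and 543 CPM in all controls.

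Of the 9 genes, 1 rose and 3 fell in 2-month mutants relative to their controls, at a Benjamini-Hochberg adjusted p under 0.05 over all genes tested by edgeR's quasi-likelihood test. Across all genes 42.7% passed in this comparison, 22.3% higher and 20.4% lower, so that the number called among the 9 is near the background. In tumour-free tissue against 9-month controls 3 rose and 4 fell, where 34.9% of all genes passed, 18.1% higher and 16.8% lower. With no filter on low counts 3 of those 7 passed, Igfbp2, Fgf21 and Ahsg. In tumours against the same controls 1 rose and 3 fell, where 25.1% of all genes passed, 13.8% higher and 11.3% lower. The median log2 change of the 9 genes was -0.40 at 2 months, -0.32 in tumour-free tissue and -0.94 in tumours, against 0.01, -0.01 and 0.01 over all genes tested. Tumours and tumour-free tissue at 9 months share their control animals, so these comparisons are not independent of each other.

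**Figure D2:**
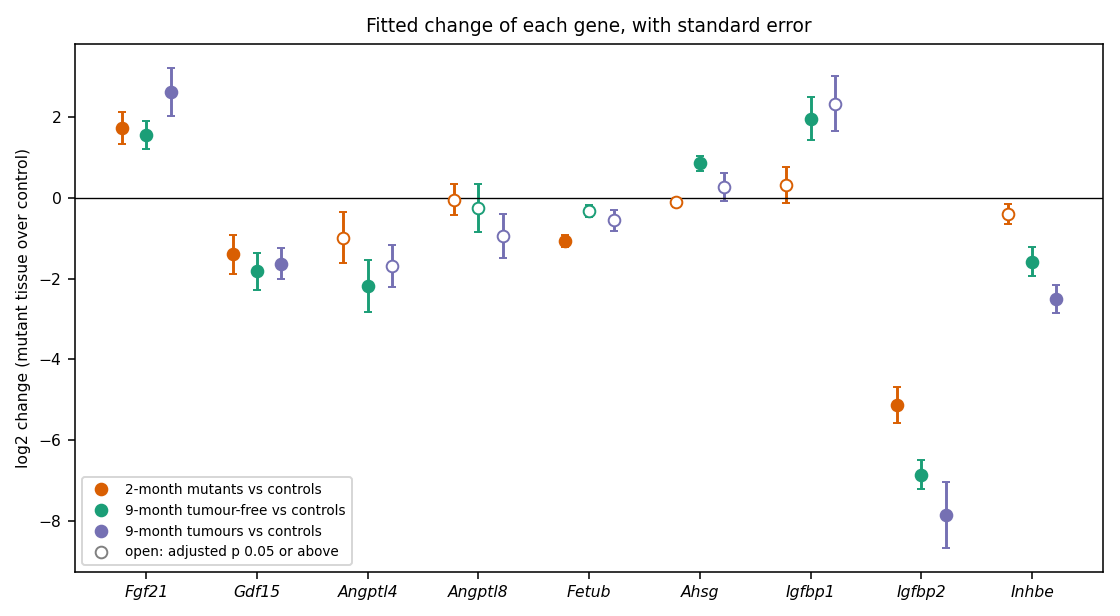
Fitted log2 change of each gene in mutant tissue over controls in the 3 comparisons, with bars of 1 standard error. Filled points have an adjusted p under 0.05. Igfbp2 lies between -5.13 and -7.85, Fgf21 and Igfbp1 are above 0 and Gdf15, Angptl4, Angptl8, Fetub and Inhbe below 0 in all 3, and Ahsg changes sign, though with the library size alone Angptl8 and Ahsg at 2 months and Angptl8 and Fetub in tumour-free tissue are above 0.

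Igfbp2, the carrier of insulin-like growth factors that is the most abundant of its kind in plasma after IGFBP3, had the largest change of the 9 genes in each of the 3 comparisons. It was read at 9.56, 14.6 and 6.71 CPM in the 3 mutants at 2 months. The 6 controls had a lowest value of 197, a median of 365 and a highest value of 543 CPM. No mutant came near any control, and the fitted log2 change was -5.13 ± 0.44 (SE), a 35.1-fold lower level (edgeR adjusted p = 8.75e-06).

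At 9 months Igfbp2 had 2.06, 1.35 and 1.46 CPM in tumour-free tissue and 1.697 and 1.58 CPM in the 2 tumours of mutant 1. It had 0.31 CPM in the tumour of mutant 2 and 0.35 CPM in that of mutant 3, from 8 counts each. The controls had 204, 116 and 244 CPM, so that all mutant tissue lay below all controls. The log2 change was -6.85 ± 0.36 in tumour-free tissue (edgeR adjusted p = 8.97e-06) and -7.85 ± 0.81 in tumours (adjusted p = 0.00201). Without mutant 1 the log2 change in tumours was -9.12, and its tumours had the highest values of the 4. The difference between the effect at 9 months and that at 2 months did not pass, at -1.71 ± 0.53 for tumour-free tissue (edgeR adjusted p = 0.139) and -2.65 ± 0.70 for tumours (adjusted p = 0.0621). The difference for tumours was -3.97 without the tumours of mutant 1 (adjusted p = 0.004885) and -2.89 without the 2-month mutant 3 (adjusted p = 0.0497), and both pass. It also passed with DESeq2, at -2.75 (adjusted p = 0.00266), and in 1 edgeR fit over all 5 groups, at -2.64 (adjusted p = 0.0394), and without all 9-month animals numbered 1, at -3.89 (adjusted p = 0.0131). The tumour-free difference passed with DESeq2, at -1.71 (adjusted p = 0.0253).

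The RefSeq annotation gives Igfbp2 more than 1 start site. A window from 250 bases before to 50 bases after one of them, inside the gene, holds an AP-1 motif. The window at the beginning of the gene, at chr1:72824230-72824529, does not hold it. The window with the motif is shown because the transgene encodes an AP-1 dimer and Igfbp2 had the largest change. The window lies at chr1:72825137-72825436 on the plus strand of GRCm38.p6, the gene at chr1:72824503-72852474, and the capitals mark TGAGTCA, which begins 39 bases before the start site.
Igfbp2 second window: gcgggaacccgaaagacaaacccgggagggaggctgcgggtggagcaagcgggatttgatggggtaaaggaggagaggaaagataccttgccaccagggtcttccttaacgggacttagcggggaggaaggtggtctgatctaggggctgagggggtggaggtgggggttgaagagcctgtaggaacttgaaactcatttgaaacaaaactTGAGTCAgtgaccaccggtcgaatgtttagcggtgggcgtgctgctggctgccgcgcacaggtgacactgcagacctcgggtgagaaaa
The AP-1 motif searched was TGANTCA on both strands, and 7.81% of 32851 such RefSeq windows hold it. It was found in 1 of the 8 genes of this set that have a window there, which are all but Angptl4. Those 8 genes have 11 windows, whereas the share is over single windows. A match of letters is a description of the sequence and not a measured binding site.

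Igfbp1, which insulin lowers and amino acid shortage raises in liver, did not share the direction of Igfbp2 (gene at chr11:7197782-7202546, plus strand). At 2 months it had 61.0, 53.2 and 25.1 CPM in mutants, against 16.3, 37.7 and 72.8 CPM as the lowest, median and highest of controls. The groups overlapped throughout, with a log2 change of 0.32 ± 0.45 (edgeR adjusted p = 0.600).

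At 9 months Igfbp1 had 90.8, 19.8 and 39.8 CPM in tumour-free tissue, and 59.3 and 65.6 CPM in the tumours of mutant 1. The tumours of mutants 2 and 3 had 119 and 14.9 CPM. The controls had 14.6, 12.04 and 11.7 CPM, and every mutant sample lay above them, by little in the case of the tumour of mutant 3. The log2 change was 1.97 ± 0.53 in tumour-free tissue (edgeR adjusted p = 0.0282). In tumours it was 2.34 ± 0.69 and did not pass (adjusted p = 0.0518); without the tumour of mutant 2 it was 1.61 (adjusted p = 0.105), but it passed without the tumour of mutant 3, at 2.84 (adjusted p = 0.00167), or without the first tumour of mutant 1, at 2.36 (adjusted p = 0.0463). It passed as well with DESeq2 (adjusted p = 0.000674), in 1 edgeR fit over all 5 groups (adjusted p = 0.0140), with the library size alone (adjusted p = 0.0261) and with the tumours as separate libraries (adjusted p = 0.0279). Without tumour-free sample 1 the log2 change in tumour-free tissue was 1.23 (adjusted p = 0.0133), and without tumour-free sample 3 or any 1 control it no longer passed, with adjusted p between 0.0622 and 0.128. The 9-month mutant tissue was not far from the 2-month livers, where the means were 46.4 ± 18.9 CPM in mutants and 37.5 ± 20.3 CPM in controls.

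The pair can also be compared within each library, which no scaling between libraries can alter. The ratio of Igfbp1 to Igfbp2 counts was 6.38, 3.65 and 3.74 in 2-month mutants, and its highest value in their controls was 0.167. At 9 months it was 44.0, 14.7 and 27.4 in tumour-free tissue and 35.0, 41.4, 388 and 42.5 in the 4 tumours, against 0.0716, 0.104 and 0.0481 in controls. The ratio was chosen after the values were seen and is a description.

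**Figure D3:**
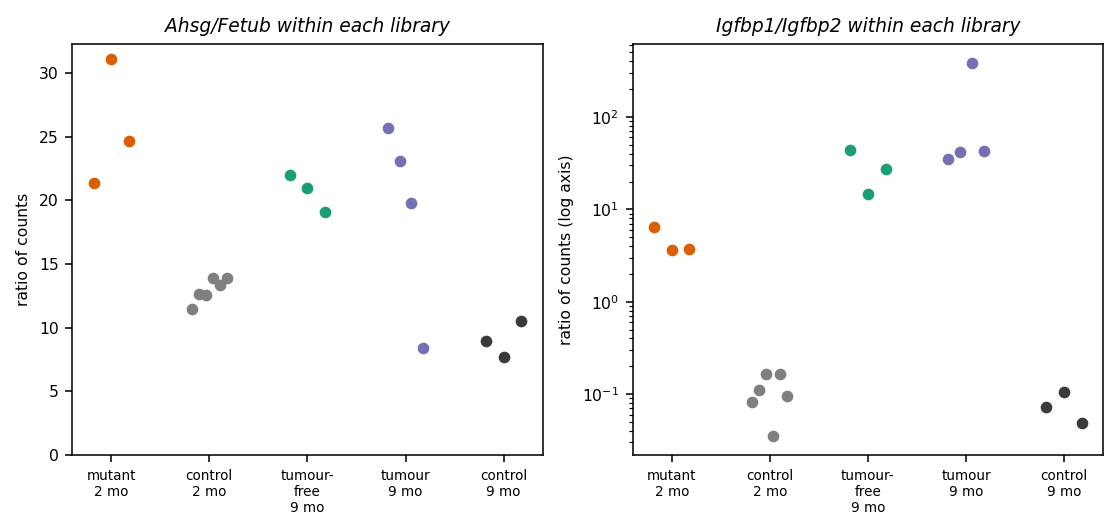
Ratio of counts within each library, of Ahsg to Fetub on a linear axis (left) and of Igfbp1 to Igfbp2 on a log axis (right). Each point is 1 library. Igfbp1 exceeds Igfbp2 in every mutant library, by 3.65 times or more, and stays at 0.167 of it or less in every control.

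Other genes of the insulin-like growth factor system were counted over a list of 16, of which 11 to 13 could be tested. At 2 months 2 rose and 3 fell of 11, at 9 months 2 rose and 3 fell of 13 in tumour-free tissue, and 4 rose and 3 fell of 13 in tumours. Over all genes 42.7%, 34.9% and 25.1% passed in these comparisons, so that the first and second of these counts are near the background. The same shares are the background of the lists below. The list's median log2 change was -0.09, -0.07 and 0.68. Igfals, the acid-labile subunit that holds IGF1 in its ternary complex in plasma, fell, with log2 changes of -2.00 ± 0.19, -2.00 ± 0.17 and -2.15 ± 0.29 (edgeR adjusted p = 1.44e-05, 8.97e-05 and 0.00344). Ghr, the growth hormone receptor, fell, with log2 changes of -0.82 ± 0.14, -1.48 ± 0.18 and -1.68 ± 0.23 (adjusted p = 0.000680, 0.000491 and 0.00350). Igf2r, the receptor that clears IGF2, rose by 0.82 ± 0.13, 0.82 ± 0.16 and 1.25 ± 0.29 (adjusted p = 0.000373, 0.00523 and 0.0208). Stc1, which encodes a stanniocalcin that inhibits the protease PAPPA, averaged 10.8 ± 6.33 CPM in tumours, 0.728 ± 0.437 CPM in tumour-free tissue and 0.134 ± 0.120 CPM in 9-month controls (SD, n = 3 each). Its change in tumours against controls passed (edgeR adjusted p = 0.00502).

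Igfbp3 and Igf1 are given for their place beside the 2 carriers and were chosen after their values were seen. Igfbp3, the main plasma carrier, lies on chromosome 11 next to Igfbp1. It averaged 129 ± 87.0 CPM in tumours, against 29.0 ± 8.16 CPM in 9-month controls (SD, n = 3 each), a log2 change of 2.13 ± 0.62 at the edge of the threshold (edgeR adjusted p = 0.0499). Igf1 averaged 373 ± 27.4 CPM in tumour-free tissue and 234 ± 127 CPM in tumours, against 582 ± 49.9 CPM in controls, and fell, with log2 changes of -0.65 ± 0.15 and -1.34 ± 0.38 (adjusted p = 0.0106 and 0.0412). At 2 months its log2 change was -0.21 ± 0.16 and did not pass (adjusted p = 0.305).

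Fgf21, the fasting and stress hormone that acts through FGF receptors with beta-Klotho, was the 1 gene of the 9 that rose in all 3 comparisons. At 2 months it had 3.25, 11.8 and 6.75 CPM in mutants, against a lowest value of 1.06, a median of 2.32 and a highest value of 3.40 CPM in controls. Mutants 2 and 3 lay above all controls and mutant 1 lay just under the highest. Its log2 change was 1.74 ± 0.39 (edgeR adjusted p = 0.00472).

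At 9 months Fgf21 had 14.1, 17.4 and 24.1 CPM in tumour-free tissue and 14.7, 25.2, 25.8 and 71.8 CPM in the 4 tumours, the last that of mutant 3. The controls had 4.34, 9.73 and 4.74 CPM, below every mutant sample. The log2 change was 1.56 ± 0.35 in tumour-free tissue (edgeR adjusted p = 0.00953) and 2.62 ± 0.60 in tumours (adjusted p = 0.0238). Without the tumour of mutant 3 the change in tumours was 1.88 (adjusted p = 0.0147), and without control 1 or control 3 it did not pass, at 2.41 and 2.44 (adjusted p = 0.0852 and 0.102), nor with no filter on low counts (adjusted p = 0.0988). In each of the 3 animals the tumour was higher than the tumour-free tissue, with log2 differences of 0.51, 0.56 and 1.57, but the comparison did not pass (log2 change 1.07 ± 0.51, edgeR adjusted p = 0.566). Absolute levels were low, the highest library holding 1637 Fgf21 counts.

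The 300 bases around the Fgf21 start lie at chr7:45615441-45615740 on the minus strand of GRCm38.p6 (gene at chr7:45613886-45615490). Those around the RefSeq start site of Inhbe lie at chr10:127351799-127352098 on the minus strand (gene at chr10:127348857-127354411). That site is inside the gene, and its window does not reach the beginning of the gene. The 2 windows are shown because both hold the motif bound by ATF4 and CHOP, while their genes changed in opposite directions at 9 months. Capitals mark TTGCATCA, which begins 139 bases before the start of Fgf21 and 181 bases before the internal start site of Inhbe. In Fgf21 they also mark the E-box CACGTG, 50 bases before the start.
Fgf21: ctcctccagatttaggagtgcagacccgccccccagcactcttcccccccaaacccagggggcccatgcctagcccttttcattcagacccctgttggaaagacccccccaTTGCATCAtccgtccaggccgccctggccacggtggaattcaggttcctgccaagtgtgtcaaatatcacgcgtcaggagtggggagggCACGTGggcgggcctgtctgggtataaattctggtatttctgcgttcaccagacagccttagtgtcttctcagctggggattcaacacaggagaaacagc
Inhbe: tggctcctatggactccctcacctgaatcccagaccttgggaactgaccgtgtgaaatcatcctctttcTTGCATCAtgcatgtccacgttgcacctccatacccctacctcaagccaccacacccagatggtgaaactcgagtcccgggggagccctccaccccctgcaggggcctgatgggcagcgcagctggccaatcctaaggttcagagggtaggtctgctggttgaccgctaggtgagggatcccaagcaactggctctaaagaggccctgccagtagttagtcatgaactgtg
The motif searched was TGATGNAA on both strands, found in 3 of the 8 genes with a window (Angptl8 is the third) and in 3.97% of all windows. The 8 genes have 11 windows, so that counts of genes and shares of windows are not in the same unit. The E-box was found in 3 of the 8, Fgf21, Gdf15 and Igfbp2, and in 7.15% of all windows. The FOXO motif TGTTTAC was found in 1 of them, Fetub, and in 3.65% of all windows, and the cAMP response element TGACGTCA in none and in 1.79%.

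Receptors and partners of FGF21 and GDF15 were counted next. Of 12 listed genes, 6 could be tested at 2 months and 7 at 9 months, none rose, and 4, 4 and 2 fell at 2 months, in tumour-free tissue and in tumours. The list's median log2 change was -1.00, -0.87 and -0.58. Fgf1, a paracrine ligand of the same receptors, fell, with log2 changes of -2.65 ± 0.27, -3.35 ± 0.26 and -3.22 ± 0.48 (edgeR adjusted p = 2.60e-05, 5.70e-05 and 0.00559). Fgfr4, the main FGF receptor of hepatocytes, fell, with log2 changes of -1.41 ± 0.15 at 2 months and -1.73 ± 0.21 in tumour-free tissue (adjusted p = 2.82e-05 and 0.000438). In tumours Fgfr4 averaged 45.8 ± 32.2 CPM, against 67.3 ± 8.11 CPM in 9-month controls (SD, n = 3 each). Klb, which encodes beta-Klotho and is named for its role, averaged 21.8 ± 3.53 CPM in 2-month mutants and 33.0 ± 5.12 CPM in their controls, a log2 change of -0.59 ± 0.15 (adjusted p = 0.00804).

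Gdf15, which encodes a stress cytokine that acts on appetite through GFRAL in the hindbrain, went the other way from Fgf21 (gene at chr8:70629393-70632456, minus strand). At 2 months it had 1.36, 2.77 and 2.36 CPM in mutants, against a lowest value of 1.48, a median of 6.07 and a highest value of 9.16 CPM in controls. The 3 mutants were below 5 of the 6 controls and overlapped the other, control 2. Its fitted change was -1.40 ± 0.49 on the log2 scale (edgeR adjusted p = 0.0396), from 23 to 51 counts per mutant library. The call was lost without any 1 mutant or without control 4, 5 or 6, with adjusted p between 0.0635 and 0.121, and it was also lost with no filter on low counts (adjusted p = 0.104) and with the library size alone (adjusted p = 0.0772).

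At 9 months Gdf15 had 7.90, 2.75 and 4.41 CPM in tumour-free tissue and 6.26, 6.34, 4.18 and 6.88 CPM in the tumours, against 23.8, 20.02 and 9.02 CPM in controls. All mutant samples lay below all controls. The log2 change was -1.82 ± 0.46 in tumour-free tissue (edgeR adjusted p = 0.0187) and -1.63 ± 0.39 in tumours (adjusted p = 0.0229). Without control 1, control 2, tumour-free sample 2 or tumour-free sample 3 the first missed the threshold, with adjusted p between 0.0511 and 0.0828. Without control 1, control 2 or the tumour of mutant 2 the second did, with adjusted p between 0.0504 and 0.0802. The mutant tissue at 9 months was at the level of 2-month controls, whose mean was 5.73 ± 2.79 CPM, and the 9-month controls were the group that stood apart, at 17.6 ± 7.69 CPM.

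The genes of the integrated stress response, through which ATF4 and CHOP drive Fgf21 and Gdf15, were counted over a list of 16. Of 13 tested at 2 months 8 rose and 2 fell, of 15 in tumour-free tissue 8 rose and 2 fell, and of 15 in tumours 8 rose and 1 fell. The median log2 change of the list was 1.16, 1.86 and 1.87. Asns, asparagine synthetase, rose by 4.12 ± 0.64, 7.33 ± 0.33 and 6.26 ± 0.58 on the log2 scale (edgeR adjusted p = 0.000639, 5.74e-06 and 0.00128), and Mthfd2, a mitochondrial folate enzyme, by 2.03 ± 0.31, 1.86 ± 0.25 and 2.89 ± 0.28 (adjusted p = 0.000378, 0.000807 and 0.00114). Vldlr, a lipoprotein receptor, rose by 3.77 ± 0.24, 2.49 ± 0.19 and 1.87 ± 0.38 (adjusted p = 5.35e-07, 4.81e-05 and 0.0136). Atf4 itself, whose activity is set mainly by translation, had log2 changes of -0.01 ± 0.12, -0.30 ± 0.18 and -0.13 ± 0.24, and Ddit3, which encodes CHOP, of -0.22 ± 0.35, -1.07 ± 0.78 and -0.61 ± 0.81, none of which passed (adjusted p between 0.238 and 0.962). Atf4 and Ddit3 are named for their role.

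Angptl4, the inhibitor of lipoprotein lipase that PPARalpha induces in fasting, varied widely in mutant tissue (gene at chr17:33773750-33781830, minus strand). At 2 months it had 10.4, 85.5 and 47.1 CPM in mutants, against a lowest value of 24.7, a median of 101 and a highest value of 131 CPM in controls. Only mutant 1 lay below the lowest control, and the log2 change of -0.99 ± 0.63 did not pass (edgeR adjusted p = 0.239). At 9 months it had 56.7, 11.0 and 13.0 CPM in tumour-free tissue and 45.2, 90.0, 30.8 and 14.9 CPM in the tumours, against 125, 113 and 125 CPM in controls.

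All 9-month mutant samples lay below the controls. The log2 change of Angptl4 was -2.17 ± 0.65 in tumour-free tissue (edgeR adjusted p = 0.0430) and -1.69 ± 0.51 in tumours (adjusted p = 0.0541). Without sample 1 the tumour-free change was -3.32 (adjusted p = 1.79e-05), and without any 1 control or tumour-free sample 2 or 3 it did not pass, with adjusted p between 0.0714 and 0.138. In tumours it passed without mutant 1, at -2.39 (adjusted p = 0.00494), without its second tumour, at -2.01 (adjusted p = 0.0113), or without mutant 3, at -1.27 (adjusted p = 0.0386), and also with DESeq2, at -1.70 (adjusted p = 0.00297), or without all 9-month animals numbered 1, at -2.40 (adjusted p = 0.0222). Animal 1, the highest of the tumour-free samples and the highest of the tumours, was also the one high in immediate early genes at 9 months. The part of that difference in the Angptl4 values was not tested.

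Angptl8, which insulin and feeding induce, showed no change past the threshold. At 2 months it had 68.2, 54.6 and 98.4 CPM in mutants, against a lowest value of 39.5, a median of 64.7 and a highest value of 156 CPM in controls. In the 9-month set it had 64.1, 125 and 189 CPM in tumour-free tissue and 44.3, 52.5, 91.5 and 96.6 CPM in tumours, against 154, 240 and 53.3 CPM in controls. The groups overlapped in each comparison. The log2 changes were -0.04 ± 0.39, -0.25 ± 0.60 and -0.94 ± 0.55 (edgeR adjusted p = 0.947, 0.775 and 0.252), and those at 2 months and in tumour-free tissue took the other sign under scaling by library size alone, at 0.26 and 0.19. Angptl8, at chr9:21835510-21837347 on the plus strand, lies inside Dock6 on the opposite strand, and the strand setting of the counting is not known here. Ahsg and Inhbe also overlap a gene on the opposite strand, the antisense genes Gm30505 and Gm47200. Dock6 averaged 34.5 ± 7.30 CPM in 2-month mutants and 47.1 ± 16.2 CPM in their controls (SD, n = 3 and 6), and its own changes did not pass (edgeR adjusted p between 0.193 and 0.779).

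The other angiopoietin-like proteins, lipases and lipase cofactors were counted over a list of 15, of which 14 were tested. At 2 months none rose and 3 fell, in tumour-free tissue 2 rose and 3 fell, and in tumours 2 rose and 4 fell. The list's median log2 change was -0.09, -0.32 and -0.65. Lipc, hepatic lipase, fell, with log2 changes of -1.89 ± 0.13, -1.67 ± 0.16 and -3.31 ± 0.32 (edgeR adjusted p = 7.43e-07, 0.000163 and 0.00112). Lpl, the lipase that these proteins restrain, averaged 88.5 ± 66.0 CPM in tumours, against 16.2 ± 3.28 CPM in 9-month controls (SD, n = 3 each), and rose by 2.43 ± 0.54 (adjusted p = 0.0213). The 9-month controls were themselves below the 2-month controls in Lpl, at a log2 change of -1.66 ± 0.26 (edgeR adjusted p = 0.00275). Of 14 PPARalpha targets tested, 1 rose and 11 fell at 2 months, and none rose at 9 months, when 11 fell in tumour-free tissue and 10 in tumours, with list medians of -1.19, -1.98 and -2.18. Ppara itself fell, with log2 changes of -0.66 ± 0.12 in tumour-free tissue and -0.98 ± 0.21 in tumours (adjusted p = 0.00442 and 0.0156).

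The fetuin genes Ahsg and Fetub lie side by side on the plus strand of chromosome 16, Ahsg at chr16:22891277-22899449 and Fetub at chr16:22918334-22939778, 18885 bases apart, and were both expressed in every library, yet they changed differently. Fetub, the fetuin that inhibits the egg protease ovastacin and is also a hepatokine, had 494, 371 and 374 CPM in 2-month mutants. Its lowest, median and highest values in controls were 763, 839 and 1044 CPM. The groups did not overlap, and the log2 change was -1.08 ± 0.15 (edgeR adjusted p = 0.000161).

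Ahsg, fetuin-A, which binds calcium phosphate in plasma and inhibits the insulin receptor, had 10561, 11561 and 9212 CPM in 2-month mutants, against 10398, 11061 and 13112 CPM as the lowest, median and highest of controls. These groups overlapped, with a log2 change of -0.10 ± 0.11 (edgeR adjusted p = 0.485). With the library size alone the log2 change was 0.16 (adjusted p = 0.129).

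At 9 months Ahsg passed the test in tumour-free tissue and Fetub in neither comparison. Fetub had 432, 505 and 548 CPM in tumour-free tissue and 283, 322, 443 and 525 CPM in tumours, all below the 638, 580 and 627 CPM of controls, with log2 changes of -0.32 ± 0.15 and -0.56 ± 0.26 (edgeR adjusted p = 0.139 and 0.160). The first of these was 0.12 with the library size alone, and the second passed in 1 fit over all 5 groups, at -0.54 (edgeR adjusted p = 0.0313). Ahsg had 9520, 10611 and 10461 CPM in tumour-free tissue, against 5732, 4482 and 6587 CPM in controls, with no overlap and a log2 change of 0.86 ± 0.19 (adjusted p = 0.00836). In tumours Ahsg had 7273, 7427, 8774 and 4422 CPM, a range that takes in all 3 controls, and its log2 change was 0.27 ± 0.35 (adjusted p = 0.603).

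The Ahsg level of tumour-free tissue, 10198 ± 591 CPM, was close to that of both 2-month groups, 10445 ± 1178 CPM in mutants and 11290 ± 992 CPM in controls. The 9-month controls were the low group, at 5601 ± 1058 CPM. The tumour-free effect exceeded the 2-month effect by 0.97 ± 0.20 on the log2 scale (edgeR adjusted p = 0.0249). It did not pass without tumour-free sample 2 or 3 (adjusted p = 0.0658 and 0.0543) or in 1 fit over all 5 groups (adjusted p = 0.212). The corresponding difference for Fetub was 0.77 ± 0.21 and did not pass (adjusted p = 0.0886), though it did without 2-month mutant 1, at 0.95, or tumour-free sample 1, at 0.89 (adjusted p = 0.0412 and 0.0471). These were 2 of 18 such differences computed for the 9 genes, of which 1 passed for tumour-free tissue, where 1.52% of all genes passed, and 1 for tumours, where 2.62% did.

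Within a library the ratio of Ahsg to Fetub counts was 21.4, 31.1 and 24.6 in 2-month mutants, and it lay between 11.4 and 13.9 in their controls. It was 22.02, 21.0 and 19.1 in tumour-free tissue and 25.7, 23.1, 19.8 and 8.42 in tumours, against 8.99, 7.73 and 10.5 in controls. All mutant libraries but the tumour of mutant 3 lay above all controls of either age. The ratio was chosen after the values were seen and is a description.

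**Figure D4:**
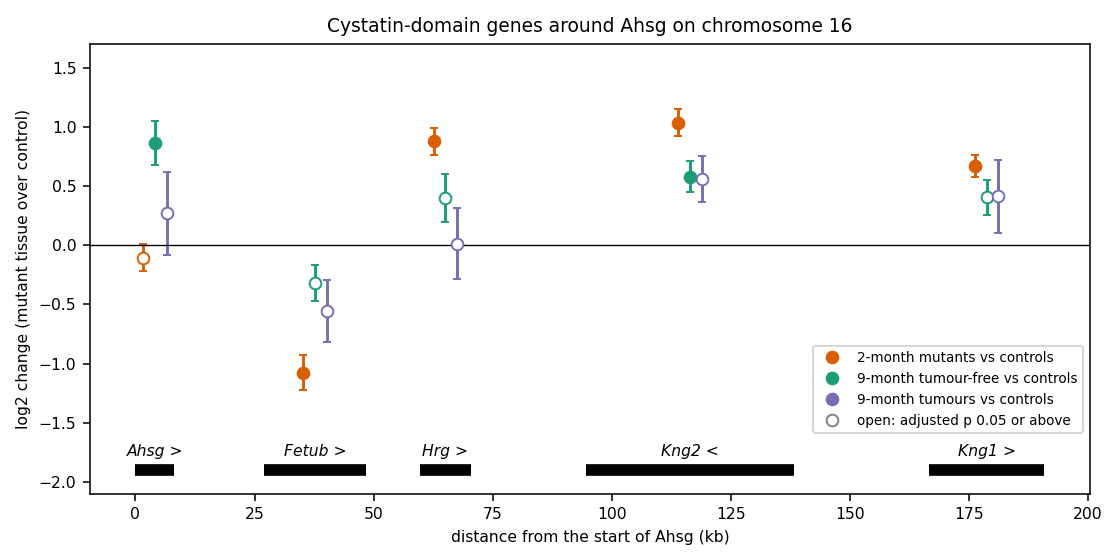
Log2 change of the 5 cystatin-family genes of the Ahsg cluster on chromosome 16 in mutant tissue over controls, against distance from the start of Ahsg in kilobases, with bars of 1 standard error and filled points for an adjusted p under 0.05. Black bars are the genes, with an arrowhead for the strand. At 2 months Fetub lies at -1.08 and its neighbours Hrg, Kng2 and Kng1 lie between 0.67 and 1.03.

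Genes on the far side of Fetub rose at 2 months. Hrg, histidine-rich glycoprotein, 11294 bases away, averaged 2278 ± 440 CPM in mutants and 1247 ± 48.5 CPM in controls (SD, n = 3 and 6), a log2 rise of 0.88 ± 0.12 (edgeR adjusted p = 0.000128). Kng2 and Kng1, the kininogen genes next to it, rose by 1.03 ± 0.12 and 0.67 ± 0.09 (adjusted p = 3.42e-05 and 0.000185). These 3 genes are named for their position. Of 6 further cystatin-family and meprin genes tested, these 3 included, 5 rose at 2 months, 3 in tumour-free tissue and 1 in tumours, and none fell, with list medians of 0.96, 0.49 and 0.49. Mep1a, a subunit of the meprin proteases that fetuins inhibit, averaged 2.15 ± 1.30 CPM in 2-month mutants and had no count in their 6 controls. At 9 months it averaged 67.3 ± 23.6 CPM in tumour-free tissue and 27.3 ± 45.1 CPM in tumours, against 0.133 ± 0.142 CPM in controls (SD, n = 3 each). The log2 change of Mep1a passed in tumour-free tissue, at 8.91 ± 0.52 (edgeR adjusted p = 1.71e-05). In tumours, whose SD exceeded their mean, it was 7.61 ± 2.32 and did not pass (adjusted p = 0.0576).

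Inhbe, whose product activin E is known to restrain fat breakdown in adipose tissue, fell at 9 months. At 2 months it had 52.0, 64.0 and 58.6 CPM in mutants, within the range of controls, whose lowest, median and highest values were 42.6, 88.7 and 95.4 CPM. The log2 change was -0.40 ± 0.25 (edgeR adjusted p = 0.230), and without control 3 it was -0.53 and passed (adjusted p = 0.0367). At 9 months it had 29.5, 66.2 and 71.0 CPM in tumour-free tissue and 20.1, 21.4, 27.0 and 41.2 CPM in tumours, against 112, 174 and 212 CPM in controls.

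All 9-month mutant samples lay below all controls. The log2 change of Inhbe was -1.58 ± 0.36 in tumour-free tissue (edgeR adjusted p = 0.0110) and -2.50 ± 0.35 in tumours (adjusted p = 0.00363). Without control 2 the first missed the threshold (adjusted p = 0.0527), as it did with no filter on low counts (adjusted p = 0.0619). In each of the 3 animals the tumour was lower than the tumour-free tissue, by 0.51, 1.29 and 0.79 on the log2 scale as CPM, without a call between the tissues (log2 change -0.91 ± 0.39, edgeR adjusted p = 0.517). The tumour effect was below the 2-month effect by 2.08 ± 0.42 on the log2 scale (adjusted p = 0.0200), a call lost without 2-month mutant 1 or 2 or 9-month control 3, with adjusted p between 0.0514 and 0.0666. Here too the 9-month controls stood apart from the 2-month livers, with 166 ± 50.5 CPM, against 76.8 ± 22.7 CPM in 2-month controls. Unlike for Gdf15, the tumours stood apart as well, at 20.1 to 41.2 CPM, below the lowest 2-month liver at 42.6 CPM. Ahsg in tumours also lay below every 2-month liver, at 4422 to 8774 CPM against a lowest value of 9212 CPM.

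Inhbc, the activin C gene 1911 bases from Inhbe, fell far more and at both times. It averaged 4.92 ± 0.825 CPM in 2-month mutants and 84.8 ± 14.6 CPM in their controls, a log2 change of -4.10 ± 0.19 (edgeR adjusted p = 5.91e-08). In the 9-month set it averaged 5.09 ± 0.756 CPM in tumour-free tissue and 4.65 ± 1.43 CPM in tumours, against 92.9 ± 11.9 CPM in controls (log2 changes -4.19 ± 0.18 and -4.33 ± 0.28, adjusted p = 4.38e-06 and 0.000402). Of 12 activin subunits, binders and receptors tested, this gene included, 5 rose and 4 fell at 2 months and 4 rose and 1 fell in each 9-month comparison, with list medians of -0.05, 0.44 and 0.39. Fstl3, a secreted activin antagonist, averaged 8.92 ± 1.79 CPM in 2-month mutants and 0.280 ± 0.179 CPM in their controls, a log2 rise of 4.92 ± 0.33 (adjusted p = 7.72e-07). It averaged 13.1 ± 3.42 CPM in tumour-free tissue and 9.93 ± 3.15 CPM in tumours, against 0.511 ± 0.108 CPM in 9-month controls (adjusted p = 2.46e-05 and 0.000869). Inhbb, the activin B subunit, averaged 17.1 ± 4.11 CPM in tumours, against 2.28 ± 1.05 CPM in 9-month controls, and rose by 2.88 ± 0.38 (adjusted p = 0.00316).

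**Figure D5:**
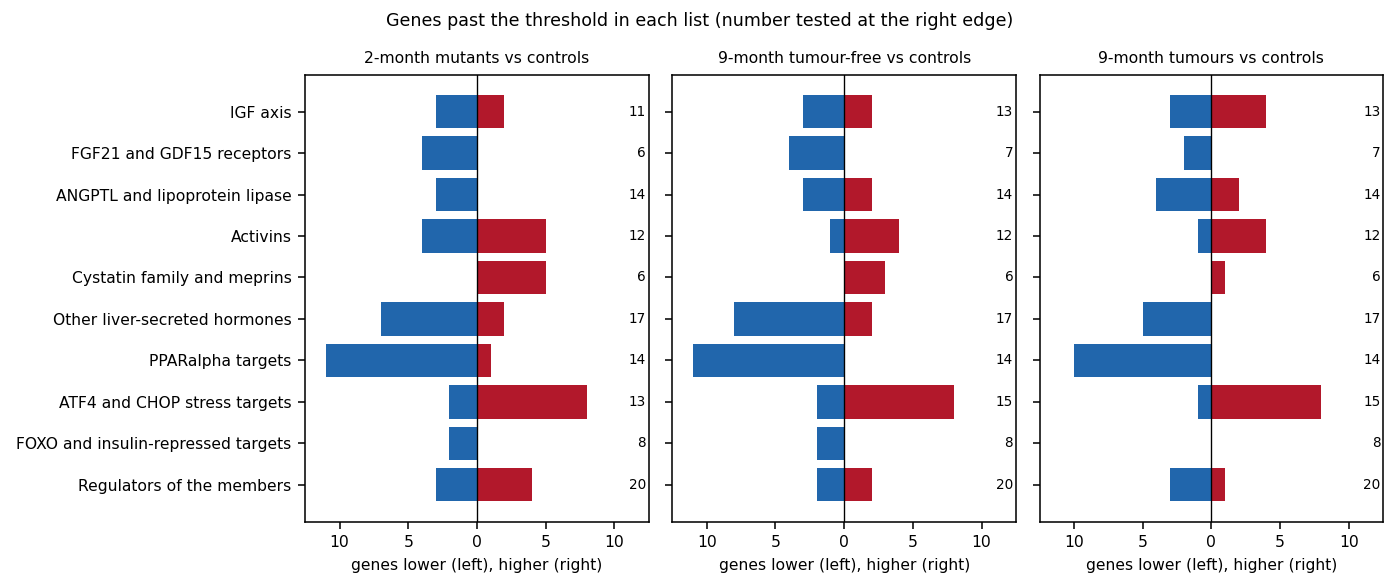
Number of genes with an adjusted p under 0.05 in each list, lower to the left and higher to the right of 0, in the 3 comparisons of mutant tissue with controls. The number tested stands at the right edge of each panel. The PPARalpha targets have 10 or 11 of 14 lower, and the stress targets have 8 of 13 or 15 higher. Over all genes 42.7%, 34.9% and 25.1% passed in the 3 comparisons.

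The other 3 lists counted were those of other circulating liver factors, of targets that insulin lowers through FOXO and of regulators of the 9 genes. Of 17 other liver factors, 2 rose and 7 fell at 2 months, 2 rose and 8 fell in tumour-free tissue and 5 fell in tumours, where none rose. Fgl1, a hepatocyte-derived fibrinogen-like protein, fell by 3.75 ± 0.21 on the log2 scale at 2 months and 3.96 ± 0.31 in tumour-free tissue (edgeR adjusted p = 2.05e-07 and 5.64e-05). Agt, angiotensinogen, fell by 1.71 ± 0.14 at 2 months (adjusted p = 3.16e-06). Of 8 FOXO targets none rose in any of the 3, and 2, 2 and 0 fell, among them Ppargc1a by 1.25 ± 0.28 at 2 months (adjusted p = 0.00407). Of 20 regulators 4 rose and 3 fell at 2 months, 2 rose and 2 fell in tumour-free tissue and 1 rose and 3 fell in tumours, with list medians of 0.03, -0.09 and -0.05. The counts of FOXO targets and regulators did not exceed the shares over all genes, 42.7%, 34.9% and 25.1%.

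None of the 9 genes passed between tumours and the tumour-free liver of the same 3 mutants, where 2 of all genes did, or 0.0137% (edgeR's quasi-likelihood test). In that fit, which does not pair the tissues, none of the 9 had an unadjusted p under 0.05. DESeq2 called 0 of them, with 3 at an unadjusted p under 0.05. With the animal as a block edgeR also called 0, with 4 at an unadjusted p under 0.05. These were Inhbe, Fgf21, Angptl8 and Igfbp2, at log2 changes of -0.87 ± 0.19, 0.87 ± 0.25, -0.61 ± 0.19 and -1.41 ± 0.51 (edgeR adjusted p between 0.356 and 0.457). The log2 changes of the 9 ran from -1.03 ± 0.67 for Igfbp2 to 1.07 ± 0.51 for Fgf21, with a median of -0.23, against 0.02 over all genes. Ahsg was lower in the tumour of all 3 animals, by 0.37, 0.27 and 1.24 on the log2 scale, and its groups did not overlap, but its test did not pass (log2 change -0.58 ± 0.32, adjusted p = 0.620). Tumour minus tumour-free was -0.33, -2.14 and -2.05 for Igfbp2, -0.40, -0.45 and -0.97 for Angptl8 and -0.51, -0.19 and -0.06 for Fetub, each lower in the tumour of all 3 animals, and 0.28, 1.49 and 0.20 for Angptl4, which was higher in all 3. Igfbp1 went in different directions, with tumour minus tumour-free differences of -0.54, 2.59 and -1.42 in animals 1, 2 and 3.

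The 9-month controls were compared with the 2-month controls because several of the results above turn on them. Their age and the sequencing run differ together and cannot be told apart. Of the 9 genes 3 were higher and 2 lower at 9 months, where 11.9% of all genes passed, 7.29% higher and 4.64% lower. Fgf21 was higher by 1.51 ± 0.34, Gdf15 by 1.61 ± 0.45 and Inhbe by 1.10 ± 0.27 on the log2 scale (edgeR adjusted p = 0.0163, 0.0460 and 0.0277). Ahsg was lower by 1.03 ± 0.13, with 4482 to 6587 CPM at 9 months and 10398 to 13112 CPM at 2 months, and Fetub was lower by 0.52 ± 0.13 (log2 changes of -1.03 and -0.52, adjusted p = 0.000778 and 0.0227). Igfbp1 had a log2 change of -1.56 ± 0.45 and Igfbp2 of -0.96 ± 0.34, and neither passed (adjusted p = 0.0535 and 0.0980).

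Only the Ahsg call of this comparison held in each of the 16 alternatives run. Without 9-month control 2 the calls for Fgf21, Gdf15, Fetub and Inhbe were lost, at log2 changes of 1.04, 1.51, -0.49 and 1.06 (edgeR adjusted p = 0.0971, 0.143, 0.0712 and 0.108). Without control 3 of that age those for Fetub and Inhbe were lost (adjusted p = 0.0701 and 0.119), and without its control 1, the library high in immediate early genes, or any of 2-month controls 1, 3, 4 and 5, that for Gdf15 was (adjusted p between 0.0672 and 0.114). Igfbp1 passed without 2-month control 1, 4 or 5 (adjusted p between 0.0232 and 0.0408), and Igfbp2 without 2-month control 1 (adjusted p = 0.0481). With DESeq2 both passed (adjusted p = 0.000494 and 0.0166), and Igfbp1 also with the library size alone (edgeR adjusted p = 0.0497). In 1 fit over all 5 groups the calls for Fgf21 and Fetub were lost (edgeR adjusted p = 0.0587 and 0.0791), and with no filter on low counts those for Gdf15 and Inhbe (adjusted p = 0.147 and 0.107).

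The genes whose pattern over 18 samples was most like that of each member were sought among 13524 protein-coding genes, by the root mean square difference of log2 CPM after each gene was centred on its own mean. Fetub and Ahsg had the smallest differences. They were 0.212 for Bmp1 and 0.224 for Mettl23 with Fetub, and 0.266 for Zdhhc14 and 0.272 for Setdb2 with Ahsg. The values of Fetub and Ahsg also spread least among the members, by 0.495 and 0.457 on the same scale. The difference is not divided by that spread, so it does not rank how well the members were matched relative to their own spread. The nearest to Igfbp1 were Irs2, an adaptor of the insulin receptor, at 0.519 and Aph1c at 0.642, and to Inhbe Mgll, monoglyceride lipase, at 0.470. Those of Angptl8 were Gm49322 at 0.449 and Gm20605 at 0.528, both at 2.25 CPM or less in every sample. The others were Serpinb8 at 0.639 and Rad54b at 0.664 for Gdf15, Pqlc3 and Gltp at 0.641 each for Fgf21, and Slc37a4 at 0.745 and Herpud1 at 0.759 for Angptl4. Igfbp2, whose own values spread by 3.70 on this scale, had Wfdc21 at 0.803 and Sult2a8 at 0.993.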

How the data were processed

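Read counts per gene for 19 libraries were deposited as 1 table of whole-number counts, and each library's group was taken from the labels. The RNA was sequenced from strand-specific poly(A) libraries, per the labels' protocols. The submitters' processing notes name STAR 2.6.1a, RSEM, bedtools 2.27.1, DESeq2 1.22.2 and GRCm38, whose roles are not stated. Neither the labels nor these notes state the annotation release, the strand setting of the counting or whether estimated counts were rounded. Of the 55421 gene identifiers, 54587 matched GENCODE M21 with the same version.

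The counts of the groups compared were fitted in edgeR 4.0.16 (R 4.3.3), with TMM scaling, the default expression filter (filterByExpr) and the quasi-likelihood test, and p-values were adjusted by Benjamini and Hochberg over all genes tested at a threshold of 0.05. Differences between effects at 9 and 2 months were contrasts in 1 fit of the 4 groups concerned, with no term for the sequencing run. The 2 tumours of mutant 1 were summed, and DESeq2 1.42.0 was an alternative. CPM are TMM-scaled, each SE is that of the log2 change, and the scripts were tested on simulated data. Other alternatives were DESeq2's size factors, the library size alone, no filter, 1 fit over all groups, a replicate block and the tumours as separate libraries. Each sample, and all 9-month animals numbered 1, were also left out. The fit over all groups took tissues of the same animal as independent, and separate tumour libraries counted mutant 1 as 2 samples.

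The 9 genes and all lists were chosen with earlier results of these data known. The text names the 9 genes, up to 3 genes per list with the smallest adjusted p in a comparison, and the 2 genes most like each member, and says where a gene was chosen otherwise. Some genes that this rule names are not reported here. The replicate numbers pair tumours with tumour-free tissue, which come from the same animal. In the other comparisons the same number gave correlations between -0.220 and 0.307 of the deviations from group means. For tumours against tumour-free tissue, where the numbers do pair, it gave 0.0367 to 0.307. These ranges overlap, so the correlations cannot decide whether the numbers pair animals in the other comparisons. The numbers were not used as pairs in those, except in the alternative with a replicate block. Each library held between 14294611 and 22062341 counts. Promoter windows are from RefSeq on GRCm38.p6.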

Additional observations from a re-analysis of the deposited data

Results flagged for a closer look

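Angptl8 in 2-month control 2, at 156 CPM, lay far from the other 5 controls of its group: its gap to the nearest was 0.631 of the range of the group, against a critical value of 0.625 for 6 samples. This was 1 of 9 groups tested in this way, of which chance alone marks about 1 in 20. The effect on Ahsg was higher by 0.974 on the log2 scale in tumour-free tissue than in 2-month mutants (edgeR adjusted p = 0.0249), and Ahsg averaged 10198 CPM in tumour-free tissue and 5601 CPM in 9-month controls, and 10445 CPM in 2-month mutants and 11290 CPM in 2-month controls. The effect on Inhbe was lower in tumours than in 2-month mutants, with a difference of -2.08 (edgeR adjusted p = 0.0200), and Inhbe averaged 29.7 CPM in tumours and 166 CPM in 9-month controls, and 58.2 CPM in 2-month mutants and 76.8 CPM in 2-month controls. The 2-month and 9-month sets were sequenced in different runs, so that time and run cannot be told apart in both differences.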

How the results depend on the processing

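The Igfbp2 change kept its call in each of the 15, 13 and 16 alternatives run for 2-month mutants, tumour-free tissue and tumours, with log2 changes of -5.47 to -4.65, -7.11 to -6.42 and -9.12 to -7.37. Scaling by library size alone moved the median over all genes by 0.286, 0.425 and 0.475 in these comparisons, and under it the log2 change was 0.26 for Angptl8 and 0.16 for Ahsg at 2 months and 0.19 for Angptl8 and 0.12 for Fetub in tumour-free tissue. The cause of the changes listed here was not tested, beyond the smaller number of samples where some were left out.

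Counts over all genes moved by over 1.5 times for tumours, to 5482 with the library size alone, 6612 in 1 fit of all groups and 1743 without the animals numbered 1, and for tumours against tumour-free tissue, to 442 with DESeq2, 47 with no filter, 380 in 1 fit of all groups and 0 without the animals numbered 1. For controls they moved to 1056 in 1 fit of all groups, for the tumour-free difference of effects to 523 with DESeq2 and 54 in 1 fit, and for the tumour difference to 859 with DESeq2 and 659 without the animals numbered 1. Of the 9 genes, no filter left 3 calls in tumour-free tissue and 3 in controls, 1 fit of all groups left 3 in controls, 0 in the tumour-free difference and 2 in the tumour difference, DESeq2 gave 3 and 2 in these differences, the library size alone gave 2 in the first and leaving out the animals numbered 1 gave 2 in the second. Without those animals Angptl8 was at 0.085 in tumour-free tissue and 0.18 in its difference, and Gdf15 at 0.0545 in the tumour difference.

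With a replicate block the genes called were 3290 at 2 months, 1 between tumours and tumour-free tissue, 384 between controls, 54 and 4 for the differences of effects, and the members called 2 at 2 months, 1 between controls and 0 for the tumour difference. The block put the tumour-free difference at 0.0085 for Fgf21 and 0.18 for Angptl8. It brought Igfbp2 past the threshold in the tumour-free difference (-2.14, edgeR adjusted p = 0.0331) and Angptl4 in tumours (-1.95, adjusted p = 0.0429). It changed no member's call between tumours and tumour-free tissue, the comparison in which the numbers are known to pair samples.

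Leaving out 1 sample at a time gave 4324 to 5832 genes at 2 months, 3351 to 4870 in tumour-free tissue, 1419 to 3566 in tumours (3825 without only the first tumour of mutant 1), 0 to 63 between tumours and tumour-free tissue, 797 to 1899 between controls, and 110 to 293 and 131 to 819 for the differences of effects. The members called were 3 to 5, 3 to 7, 2 to 6, 0 to 0, 1 to 6, 0 to 2 and 0 to 2 in that order. The sign then varied for Angptl8 at 2 months (-0.30 to 0.30) and in tumour-free tissue (-0.67 to 0.28), and between tumours and tumour-free tissue for Gdf15 (-0.11 to 0.68), Angptl4 (-0.25 to 1.66) and Igfbp1 (-0.37 to 1.12). It varied in the tumour-free difference for Fgf21 (-0.48 to 0.39) and Angptl8 (-0.61 to 0.32), and in the tumour difference for Gdf15 (-0.52 to 0.076) and Angptl4 (-1.38 to 0.078). Low counts limit Igfbp2 in mutant tissue, with 8 counts in 2 tumours, and Gdf15 at 2 months, and the SE of the log2 change was 0.81 for Igfbp2 in tumours.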
